A study of Mus musculus with 20 samples.

Results

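The genes described are the mouse receptors for serotonin, acetylcholine, and adrenaline and noradrenaline. They were chosen by symbol among the protein-coding genes, as Htr followed by a number, Chrm followed by a number, or a name beginning with Chrna, Chrnb, Adra or Adrb, which gave 41 of the 49671 genes counted. There were 14 serotonin receptor genes, 5 muscarinic and 13 nicotinic acetylcholine receptor genes, and 9 adrenergic receptor genes. After a filter on low counts, 36 of the 41 were tested for differences between groups.

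RNA was sequenced in bulk from 20 single frozen hippocampi, each from another adult male wild-type mouse aged 10 to 12 weeks, with 5 mice in each of 4 groups. Control mice carried no tumour and received isotype-matched antibody. The ICI group, named for immune checkpoint inhibitors, carried no tumour and received intraperitoneal antibodies against CTLA-4 (1 mg per dose, 3 doses per week) and PD-1 (200 µg per dose, 2 doses per week). The melanoma group was injected intradermally on both sides with D4M-3A.UV2 cells, a mouse melanoma line, at 500000 cells per injection, and received isotype antibody after 1 week of engraftment. The melanoma plus ICI group carried the same tumours and received both checkpoint antibodies, for 3 weeks as the labels state. Tissue was collected 72 hours after the final antibody dose. The tumours grew in the skin, so the groups compare the brain of a tumour-bearing mouse with that of a tumour-free one, and no tumour tissue was sequenced here.

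Serotonin fibres from the raphe nuclei, noradrenaline fibres from the locus coeruleus and acetylcholine fibres from the septum reach the hippocampus, where they adjust the excitability of pyramidal cells, granule cells and interneurons. Most of these receptors are coupled to G proteins. Gq-coupled receptors (Htr2, Chrm1, Chrm3, Chrm5, Adra1) activate phospholipase C, Gi-coupled ones (Htr1, Htr5a, Chrm2, Chrm4, Adra2) inhibit adenylyl cyclase, and Gs-coupled ones (Htr4, Htr6, Htr7, Adrb) stimulate it. The exceptions are the ion channels. These are the nicotinic receptors, many of which are pentamers of alpha and beta subunits, and the serotonin channel made from Htr3a and Htr3b.

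The libraries held between 21990624 and 25735149 counts. Markers of the hippocampal fields were found in every library, and their summed level, in counts per 1000000 of the scaled library size (CPM), varied widely for the dentate gyrus (40.7 to 651 over 5 markers) and less for CA1 (374 to 753 over 5 markers). Transcripts of neighbouring tissue also varied between libraries. The 12 choroid plexus markers summed to between 25.8 and 6788 CPM and the 8 striatal markers to between 113.1 and 943 CPM. Striatal markers placed 4 libraries apart from the other 16, namely melanoma 1, 3 and 5 and melanoma plus ICI 3, with mean log2 CPM scores of 5.23 or more against 3.55 or less. Melanoma plus ICI 3 also had the lowest scores for the dentate gyrus, CA1 and CA3. Library names carry numbers of unstated meaning that fall largely in separate ranges by group, so whatever they record and the group cannot be told apart. In bulk tissue, a change in the number of cells of a type and a change in RNA per cell cannot be told apart either.

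The most abundant receptors per length were muscarinic and alpha-1 adrenergic. On the scale of CPM per kilobase of gene model, 4 tested genes lay at 10 or more (Chrm1, Adra1d, Chrm4 and Chrm3), 20 between 1 and 10, and 12 below 1. In the order of mean levels, 4 of the 40 neighbouring pairs lay farther apart than the larger of their SDs over 20 libraries, among them Adra1d above Chrm4, Chrm3 above Chrnb2 and Htr6 above Htr5a. The other neighbouring pairs did not differ beyond their spread. The order was identical when libraries were scaled by size factors in place of TMM factors.

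**Figure D1:**
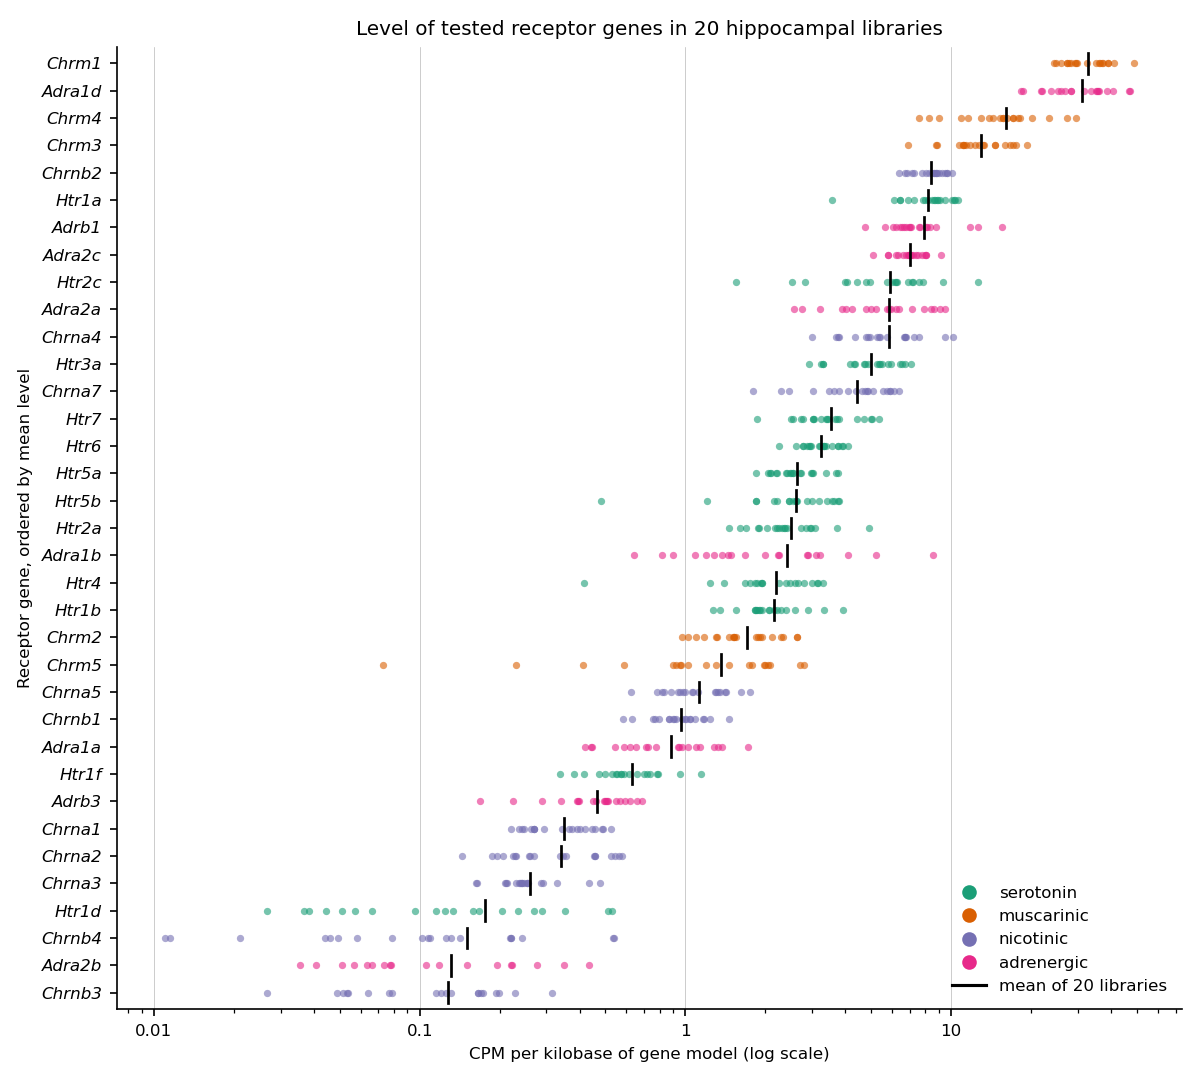
Level of the tested receptor genes that are reported by name, as CPM per kilobase on a log axis; each point is 1 library, coloured by family, and the black line is the mean of 20 libraries. Chrm1 and Adra1d lead at means of 32.8 and 31.0, Chrnb3 is last at 0.128, and the libraries at 0 for Adra2b cannot be drawn on the log axis.

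Among the muscarinic genes, Chrm1, which encodes the Gq-coupled M1 receptor of principal neurons, had the highest level of all members, 32.8 ± 6.40 CPM per kilobase (SD, n = 20). Its CPM in the 5 control libraries was 180.2, 266, 235, 177 and 193, and in ICI 252, 229, 315, 242 and 177. Melanoma libraries held 235, 240, 184, 252 and 191 CPM, and melanoma plus ICI libraries 168, 191, 161, 159 and 209.9. The melanoma plus ICI values were the lowest as a set, and they overlapped those of each other group. Chrm4, the Gi-coupled M4 receptor, had 16.1 ± 5.78 CPM per kilobase on a gene model of 1440 bases. Chrm3 followed at 13.0 ± 3.23, Chrm2 at 1.70 ± 0.51 and Chrm5 at 1.36 ± 0.77. Chrm5 varied widely, from 0.116 CPM in melanoma plus ICI 3 to 4.48 CPM in melanoma plus ICI 2.

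Of the adrenergic genes, Adra1d, a Gq-coupled alpha-1 receptor, was by far the highest at 31.0 ± 8.49 CPM per kilobase. Its CPM was 41.7, 73.6, 77.3, 53.5 and 51.1 in control and 67.6, 68.6, 89.1, 67.5 and 34.9 in ICI. It was 63.8, 60.1, 45.2, 88.5 and 41.3 in melanoma and 49.1, 53.5, 35.3, 47.8 and 66.8 in melanoma plus ICI. All 4 groups overlapped. Adrb1, the Gs-coupled beta-1 receptor, came next at 7.92 ± 2.59 CPM per kilobase, then Adra2c at 7.02 ± 0.94 and Adra2a at 5.82 ± 2.10, both Gi-coupled. Adra1b had a mean of 2.42 CPM per kilobase, Adra1a 0.886, Adrb3 0.465 and Adra2b 0.131. An antisense gene shares 24.9% of the Adrb3 model on the opposite strand and holds 121% as many counts, so the Adrb3 level is uncertain.

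Adra1b, another Gq-coupled alpha-1 receptor, was the one member of 32 with a mean of at least 1 CPM whose highest library was 3 or more times its median library, as were 323 of 15511 genes (2.08%). It held 29.0 CPM in melanoma plus ICI 3 against a median of 6.21 CPM. Its CPM was 9.83, 2.17, 4.05, 17.6 and 10.5 in control and 7.54, 4.89, 2.76, 3.66 and 7.64 in ICI. It was 10.8, 5.67, 6.75, 3.05 and 9.67 in melanoma and 13.8, 4.64, 29.0, 4.34 and 5.02 in melanoma plus ICI. The spread within each group was wide, and the groups overlapped. The median coefficient of variation was 29.5% over the 32 members with a mean of at least 1 CPM, whose median level was 2.62 CPM per kilobase. Over all 15511 tested genes with such a mean it was 16.4%, at a median level of 5.53 CPM per kilobase, and this difference was neither tested nor matched for level.

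In the nicotinic family, the beta-2 subunit Chrnb2 led at 8.38 ± 1.07 CPM per kilobase and the alpha-4 subunit Chrna4, its usual partner in brain, followed at 5.82 ± 1.88. Chrnb2 held 75.6, 65.1, 72.1, 53.3 and 60.8 CPM in control and 84.5, 79.8, 74.2, 72.5 and 80.7 CPM in ICI. It held 71.1, 67.3, 59.8, 77.5 and 69.2 CPM in melanoma and 57.3, 80.9, 56.3, 73.5 and 73.3 CPM in melanoma plus ICI. Chrnb2 had the smallest coefficient of variation of the members at 12.8%. The annotation places Adar on the opposite strand over 16.3% of the Chrnb2 gene model, and Adar holds 261% as many counts. Since no source used here states whether counting used strand, reads of both genes cannot be told apart there, so the Chrnb2 level is uncertain.

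Chrna4 held 47.4, 18.9, 24.9, 18.98 and 28.8 CPM in control and 33.8, 26.9, 15.04, 24.1 and 51.1 CPM in ICI. It held 33.4, 33.7, 26.5, 18.6 and 36.6 CPM in melanoma and 21.8, 24.4, 38.1, 27.1 and 34.0 CPM in melanoma plus ICI. The groups overlapped. Chrna7, which forms the alpha-7 receptor from a single kind of subunit, stood at 4.43 ± 1.34 CPM per kilobase. Chrna5 and the muscle-type subunit Chrnb1 were near 1, at 1.13 ± 0.298 and 0.959 ± 0.209 CPM per kilobase. Chrna1, Chrna2, Chrna3, Chrnb4 and Chrnb3 lay between 0.351 and 0.128. Chrna6, Chrna9 and Chrna10 were below the filter, with 53, 29 and 87 counts summed over all 20 libraries.

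Among the serotonin receptors, Htr1a, the Gi-coupled receptor dense on pyramidal cells, was highest at 8.22 ± 1.74 CPM per kilobase. Its CPM was 44.9, 39.6, 38.6, 32.1 and 27.2 in control and 38.15, 42.3, 45.6, 37.65 and 47.3 in ICI. It was 35.3, 40.5, 30.7, 35.0 and 28.5 in melanoma and 28.6, 36.3, 15.9, 39.4 and 46.0 in melanoma plus ICI, where library 3 was the lowest of all. Htr2c, the Gq-coupled receptor that is also dense in choroid plexus epithelium, came next at 5.91 ± 2.51, followed by the channel subunit Htr3a at 4.99 ± 1.23. Htr7, Htr6, Htr5a, Htr5b, Htr2a, Htr4 and Htr1b had means between 3.53 and 2.16, Htr1f had 0.628 and Htr1d 0.176. Htr2b and Htr3b were below the filter, with 70 and 11 counts over all libraries. Psmd1, on the opposite strand, shares 11.8% of the Htr2b gene model.

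Group differences were tested on the counts with edgeR's quasi-likelihood test over 18427 genes, with Benjamini-Hochberg adjustment over all of them, and differences are given as log2 fold changes with standard errors (SE). No receptor gene reached an adjusted p under 0.05 in any of 6 comparisons, and neither did any other gene. DESeq2 called 1 receptor gene in 1 comparison, where it called 8 genes in all (0.0434%), and limma's voom called 0 receptor genes, with 1 gene in all (0.00543%) in that comparison, while 2 to 6 members per comparison had an unadjusted p under 0.05 by edgeR. The 6 comparisons share groups, so they are not independent. For description, members with an unadjusted p under 0.05 are named and set beside the share of all tested genes that passed the same threshold in the same direction.

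**Figure D2:**
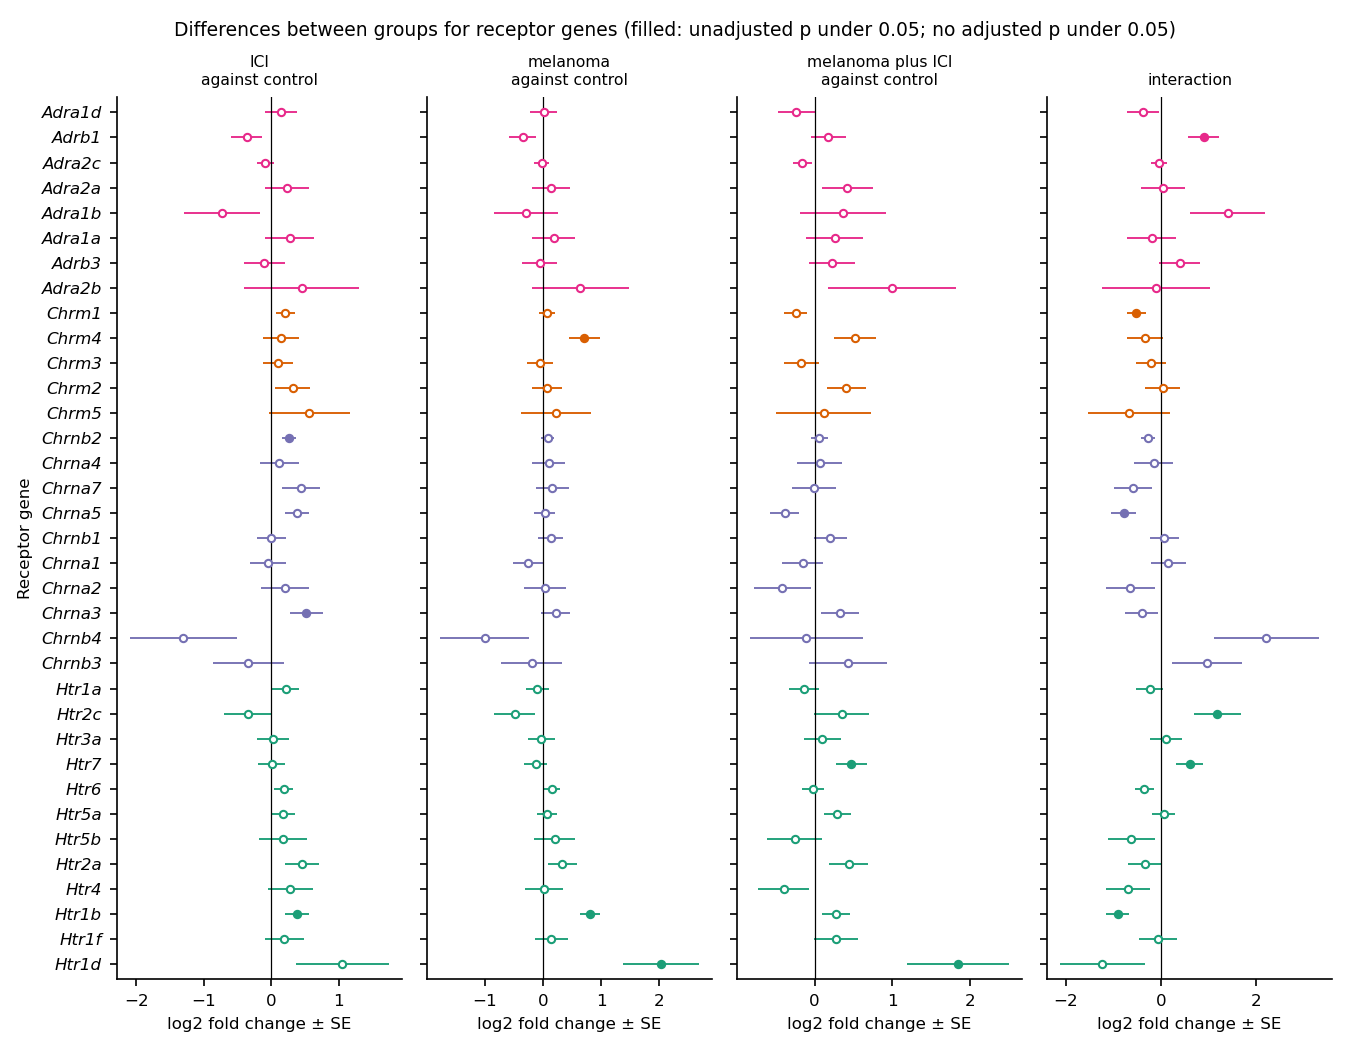
Log2 fold change ± SE of the tested receptor genes that are reported by name in 4 comparisons, grouped by family and ordered by level; the interaction subtracts the ICI difference of tumour-free mice from that of tumour-bearing mice, and filled points have an unadjusted p under 0.05. Htr1b and Htr1d stand farthest right in melanoma against control at 0.81 and 2.03, and no point has an adjusted p under 0.05.

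The first comparison asks what checkpoint antibodies do in mice without a tumour. Of the 36 tested members, 27 were higher and 9 lower in ICI than in control, with a median log2 fold change of 0.19, beside -0.01 over all tested genes. With an unadjusted p under 0.05, 3 members were higher and 0 lower, beside 2.08% of all genes higher and 3.15% lower. They were Chrnb2 (log2 fold change 0.26, SE 0.11), Chrna3, an alpha-3 subunit (0.52, SE 0.24), and Htr1b, an autoreceptor on serotonin terminals (0.38, SE 0.18), each with an adjusted p of 0.766 by edgeR.

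Chrna3 held 1.33, 1.27, 0.865, 1.34 and 0.861 CPM in control and 1.11, 1.28, 2.52, 1.73 and 1.51 CPM in ICI. Thus ICI 3, 4 and 5 lay above all controls and the others overlapped them. Without ICI 3 the difference of Chrna3 was 0.31. The 5 ICI values of Chrnb2 lay between 72.5 and 84.5 CPM and overlapped the control range of 53.3 to 75.6 CPM. By family, 5 of 5 muscarinic, 11 of 12 serotonin, 6 of 10 nicotinic and 5 of 9 adrenergic receptor genes tested had log2 fold changes above 0, beside 8850 of all 18427 genes. The family medians were 0.21, 0.19, 0.16 and 0.14. The 6 vascular markers summed to 204 to 241 CPM in control libraries and to 155 to 194 CPM in the ICI group, without overlap, and the 9 meningeal markers to 108 to 314 and 62.6 to 248 CPM, with overlap, none of them at 0 in every library. Their part in the receptor differences was not tested.

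The comparison of melanoma with control asks what a tumour at a distance does without checkpoint antibodies. Of the members, 24 were higher and 12 lower, with a median log2 fold change of 0.06, beside -0.01 over all genes. With an unadjusted p under 0.05, 3 were higher and 0 lower, beside 2.7% of all genes higher and 2.41% lower. These 3 were Htr1b, Htr1d and Chrm4, all Gi-coupled.

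Htr1b (ENSMUSG00000049511, chr9:81628291-81633828, minus strand, as the deposited tables give it) held 8.69, 8.75, 6.37, 8.94 and 5.99 CPM in control and 9.22, 10.8, 8.66, 10.5 and 11.3 CPM in ICI. It held 13.7, 10.2, 18.6, 9.75 and 15.7 CPM in melanoma and 7.30, 9.77, 12.2, 8.64 and 9.02 CPM in melanoma plus ICI. The melanoma libraries lay above all controls without overlap, and melanoma 1, 3 and 5 were the highest of all 20. The log2 fold change of Htr1b in melanoma against control was 0.81 (SE 0.18, adjusted p = 0.642 by edgeR). By DESeq2 the difference of Htr1b was 0.80 (SE 0.18, adjusted p = 0.0428), the single call of a receptor gene in any alternative. Over the alternatives the adjusted p of Htr1b ranged from 0.0428 to 0.999. An antisense gene shares 18% of the Htr1b model on the opposite strand and holds 16% as many counts.

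Htr1d (ENSMUSG00000070687, chr4:136423524-136444398, plus strand) was rare, with 0.117, 0.212, 0.182, 0.369 and 0.164 CPM in control and 0.429, 0.309, 0.143, 0.864 and 0.40 CPM in ICI. It held 0.924, 0.0853, 1.64, 0.509 and 1.13 CPM in melanoma and 0.123, 0.651, 1.70, 0.749 and 0.533 CPM in melanoma plus ICI. Melanoma 2 was the lowest of all 20 libraries, so the groups overlapped. The difference of melanoma from control was 2.03 (SE 0.65, adjusted p = 0.807 by edgeR).

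Chrm4 (ENSMUSG00000040495, chr2:91927249-91928688, plus strand) held 24.7, 10.9, 18.7, 11.9 and 23.4 CPM in control and 25.8, 20.1, 15.8, 12.9 and 24.7 CPM in ICI. It held 26.3, 22.5, 42.5, 21.996 and 33.6 CPM in melanoma and 29.1, 20.8, 39.4, 16.7 and 22.5 CPM in melanoma plus ICI. The melanoma and control values overlapped. The difference of melanoma from control was 0.71 (SE 0.27, adjusted p = 0.877 by edgeR).

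Chrm4 and Htr1b are known from striatal projection neurons as well, and all 3 genes were high where striatal markers were high. In the 4 libraries high in striatal markers, Htr1b lay between 12.2 and 18.6 CPM, Htr1d between 0.924 and 1.70 and Chrm4 between 26.3 and 42.5. In the other 16 libraries, Htr1b lay between 5.99 and 11.3 CPM (median 8.98), Htr1d between 0.0853 and 0.864 (median 0.339) and Chrm4 between 10.9 and 29.1 (median 21.4). For Htr1b and Htr1d the 2 sets of libraries did not overlap, and for Chrm4 they did. All 8 striatal markers were counted, none was at 0 in every library, and they summed to 140.1 to 222 CPM in control libraries, 172 to 225 in the ICI group, 195 to 943 in the melanoma group and 113.1 to 494 in the combined group. Since the striatal scores form separate clusters, no correlation over all 20 libraries is given.

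Without the 4 libraries high in striatal markers, 0 of the 36 members of the main fit had an unadjusted p under 0.05 in melanoma against control. In the same fit, 1.17% of all genes were higher and 1.59% lower at that threshold. The filter was rerun there and kept 19237 genes, among them Chrna10, which did not pass either (0.28, SE 1.35). The log2 fold change of Htr1b was then 0.36 (SE 0.18), that of Htr1d 0.51 (SE 0.76) and that of Chrm4 0.30 (SE 0.32), each with an adjusted p of 0.999 by edgeR and with 2 melanoma libraries left. With the choroid plexus, striatum, neocortex and dentate gyrus scores as covariates in all 20 libraries, the difference of Htr1b was 0.32 (SE 0.14), that of Htr1d 0.20 (SE 0.57) and that of Chrm4 0.48 (SE 0.21). In that fit 3 members had an unadjusted p under 0.05, namely Htr1b and Chrm4, higher beside 2.24% of all genes, and Adrb1 (-0.43, SE 0.17), lower beside 2.36%, each with an adjusted p of 0.955 by edgeR. Within the 16 libraries, the striatal score had a Pearson r of 0.50 with Htr1b (permutation p = 0.0511, adjusted over the 3 genes 0.0766) and a Spearman rho of 0.35 (permutation p = 0.18, adjusted 0.27), and r was 0.34 without the 2 farthest libraries. For Htr1d, r was 0.60 (permutation p = 0.0121, adjusted 0.0364), rho 0.56 (permutation p = 0.0282, adjusted 0.0846) and r without the 2 farthest libraries 0.52. For Chrm4, r was 0.04 (permutation p = 0.883, adjusted 0.883), rho 0.18 (permutation p = 0.507, adjusted 0.507) and r without the 2 farthest libraries 0.32.

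**Figure D3:**
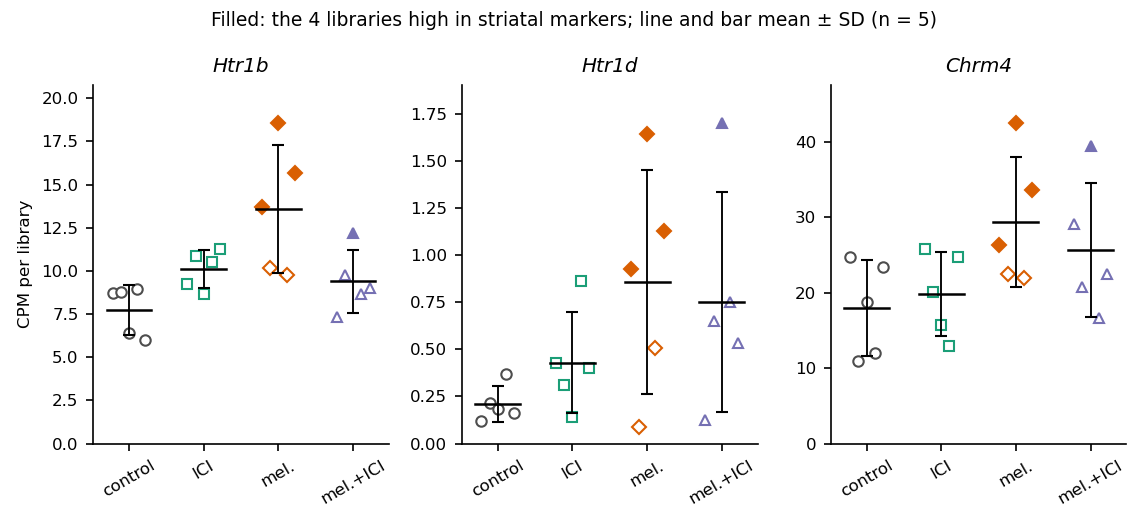
CPM of Htr1b, Htr1d and Chrm4 per library on linear axes from 0, by group (mel. stands for melanoma); filled symbols are the 4 libraries high in striatal markers, and the line and bar are the mean and SD of 5 libraries. In melanoma, the filled points lie above the open ones for all 3 genes, and the filled melanoma plus ICI point is the highest of its group for each.

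The promoters of these 3 genes are shown because the genes were high in the same libraries, and each is given 5′ to 3′ on the gene's strand from RefSeq on GRCm38.p6, as 250 bases before and 50 bases from the transcript start, with GC boxes (GGGCGG, either strand) in capitals. They lie at chr9:81633783-81634082, minus strand, for Htr1b, at chr4:136423274-136423573, plus strand, for the Htr1d start that equals the deposited one, and at chr2:91921939-91922238, plus strand, for Chrm4.
Htr1b: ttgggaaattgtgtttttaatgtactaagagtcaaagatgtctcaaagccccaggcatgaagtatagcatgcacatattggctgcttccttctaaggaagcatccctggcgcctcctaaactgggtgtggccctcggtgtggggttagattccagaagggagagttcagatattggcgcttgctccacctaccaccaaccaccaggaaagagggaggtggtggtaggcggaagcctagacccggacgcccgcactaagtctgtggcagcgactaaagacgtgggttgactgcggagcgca
Htr1d: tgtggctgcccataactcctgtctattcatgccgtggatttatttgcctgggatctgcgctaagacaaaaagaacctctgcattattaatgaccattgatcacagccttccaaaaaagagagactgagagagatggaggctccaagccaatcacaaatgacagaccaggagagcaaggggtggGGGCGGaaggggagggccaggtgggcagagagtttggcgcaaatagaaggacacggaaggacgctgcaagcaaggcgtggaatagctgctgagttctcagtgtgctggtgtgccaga
Chrm4: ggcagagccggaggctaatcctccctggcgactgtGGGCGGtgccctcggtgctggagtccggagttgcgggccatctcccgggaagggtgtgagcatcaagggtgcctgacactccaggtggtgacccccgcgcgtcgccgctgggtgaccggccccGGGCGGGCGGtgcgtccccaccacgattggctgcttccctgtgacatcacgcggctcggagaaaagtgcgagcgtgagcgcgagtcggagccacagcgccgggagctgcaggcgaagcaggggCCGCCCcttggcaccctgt

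The Htr1b window holds 0 GC boxes, the Htr1d window 1, and the Chrm4 window 4, of which 2 overlap. RefSeq has another Htr1d start 1088 bases downstream, whose window holds 4 GC boxes. The GC content is 53.3% for Htr1b and 70.7% for Chrm4, beside a median of 52.7% over all 32851 promoters of the table. A GC box was found in 35.7% of those promoters and in 18 of the 34 promoters of the 30 receptor genes matched by symbol, or 52.9%. The start of Chrm4 in RefSeq lies 5060 bases before the start of the deposited gene model, so its level per length refers to that shorter model. Members without a matched promoter include Chrnb3, Adra1d, Adrb3, Chrna2, Chrna6, Htr3a, Adra1a, Chrm1, Htr5b and Htr4. Of other motifs searched on both strands, TATAAA was in 2 of the 34 receptor promoters (13.6% of all promoters), CACGTG in 3 (7.15% of all) and TGACGTCA in 0 (1.79% of all).

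The comparison of melanoma plus ICI with control joins both exposures. Of the members, 23 were higher and 13 lower, with a median log2 fold change of 0.19, beside 0.00 over all genes. With an unadjusted p under 0.05, 2 were higher and 0 lower, beside 1.1% of all genes higher and 1.28% lower. They were Htr1d (1.85, SE 0.65) and Htr7, a Gs-coupled serotonin receptor (0.47, SE 0.20), each with an adjusted p of 1.00 by edgeR. Without the 4 libraries high in striatal markers, the difference of Htr1d was 1.29 (SE 0.59) and that of Htr7 0.57 (SE 0.21). With the 4 tissue scores as covariates, they were 0.84 (SE 0.51) and 0.41 (SE 0.20).

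The comparison of melanoma plus ICI with melanoma asks what checkpoint antibodies do in tumour-bearing mice. The members split into 19 higher and 17 lower, with a median log2 fold change of 0.07, beside 0.02 over all genes. With an unadjusted p under 0.05, 3 were higher and 3 lower, beside 2.63% of all genes higher and 2.87% lower. Higher were Htr2c (0.83, SE 0.35), Htr7 (0.60, SE 0.20) and Adrb1 (0.53, SE 0.23), and lower were Htr1b (-0.53, SE 0.18), the alpha-5 subunit Chrna5 (-0.41, SE 0.19) and Chrm1 (-0.31, SE 0.14), each with an adjusted p of 0.825 by edgeR. The melanoma libraries high in striatal markers enter here as well, and without the 4 such libraries the difference of Htr1b was -0.19 (SE 0.18) and that of Chrna5 -0.65 (SE 0.25), while without melanoma 2 that of Chrna5 was -0.24. With the 4 tissue scores as covariates, the difference was 0.40 (SE 0.40) for Htr2c, 0.37 (SE 0.24) for Htr7, -0.29 (SE 0.14) for Htr1b, -0.20 (SE 0.14) for Chrm1 and -0.33 (SE 0.24) for Chrna5.

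Htr7 (ENSMUSG00000024798, chr19:35958734-36057507, minus strand) held 16.95, 6.33, 11.5, 11.8 and 9.22 CPM in control and 12.6, 12.4, 8.66, 9.38 and 12.9 CPM in ICI. It held 8.53, 10.3, 10.3, 10.4 and 11.6 CPM in melanoma and 15.01, 15.99, 11.02, 18.3 and 17.2 CPM in melanoma plus ICI. In melanoma plus ICI, 4 of the 5 libraries lay above all ICI and melanoma libraries, and library 3 lay within their range.

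Adrb1 held 21.8, 15.4, 17.7, 31.4 and 20.8 CPM in control and 20.02, 17.2, 15.1, 11.8 and 18.96 CPM in ICI. It held 17.4, 16.8, 18.9, 14.0 and 16.6 CPM in melanoma and 38.7, 16.3, 29.5, 16.01 and 20.1 CPM in melanoma plus ICI. The combined group divided into libraries 1, 3 and 5, above all melanoma libraries, and libraries 2 and 4, within their range. Without melanoma plus ICI 1, the difference of Adrb1 from melanoma was 0.29 and that from ICI 0.30, and voom with quality weights gave 0.19 and 0.21. Libraries 1 and 3 also had high neocortical scores, and Adrb1 correlated with that score over the 20 libraries (r = 0.78, permutation p = 7e-05, adjusted p = 0.00268; rho = 0.86, permutation p = 2e-05, adjusted p = 0.00122; r = 0.77 without the 2 farthest libraries). With the neocortex score among the 4 covariates, the difference of Adrb1 was 0.56 (SE 0.18) from melanoma and 0.43 (SE 0.17) from ICI.

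Htr2c held 46.4, 73.1, 64.4, 38.01 and 70.4 CPM in control and 53.5, 57.5, 14.5, 37.4 and 67.0 CPM in ICI. It held 26.3, 23.6, 55.9, 58.0 and 44.8 CPM in melanoma and 41.2, 87.1, 66.5, 118 and 58.6 CPM in melanoma plus ICI. The groups overlapped, and the highest value was in melanoma plus ICI 4, the library with the highest choroid plexus and meninges scores. Over the 20 libraries Htr2c correlated with the meninges score (r = 0.68, permutation p = 8.9e-04, adjusted p = 0.0136; rho = 0.60, permutation p = 0.00651, adjusted p = 0.0531; r = 0.45 without ICI 3 and melanoma plus ICI 4, so it rests in part on them). With the choroid plexus score it had r = 0.57 (permutation p = 0.0068, adjusted p = 0.0560), rho = 0.74 (permutation p = 3.5e-04, adjusted p = 0.00739) and r = 0.68 without the 2 farthest libraries. The choroid plexus scores were 2.89 ± 1.76 in the melanoma group and 4.35 ± 2.03 in the combined group (SD, n = 5), with summed levels of 49.8 to 3784 and 73.2 to 6788 CPM. The 9 meningeal markers summed to 108 to 314 CPM in control libraries, 62.6 to 248 in the ICI group, 80.5 to 263 in the melanoma group and 146 to 451 in the combined group, none was at 0 in every library, and their part in the difference was not tested.

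In melanoma plus ICI against ICI, which asks what the tumour adds under treatment, 16 members were higher and 20 lower, with a median log2 fold change of -0.03, beside 0.02 over all genes. With an unadjusted p under 0.05, 2 were higher and 2 lower, beside 4.12% of all genes higher and 4.51% lower. Higher were Adrb1 (0.54, SE 0.23) and Htr7 (0.47, SE 0.20), and lower were Chrna5 (-0.76, SE 0.19) and Chrm1 (-0.45, SE 0.14), each with an adjusted p of 0.563 by edgeR.

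Chrna5 (ENSMUSG00000035594, chr9:54980880-55007779, plus strand), an accessory subunit that joins alpha-4 beta-2 receptors, held 2.54, 4.16, 4.23, 3.32 and 2.99 CPM in control and 4.07, 4.45, 5.47, 4.40 and 4.04 CPM in ICI. It held 3.49, 5.07, 2.60, 3.05 and 3.34 CPM in melanoma and 3.12, 1.95, 2.94, 2.76 and 2.44 CPM in melanoma plus ICI. All 5 melanoma plus ICI libraries lay below all 5 ICI libraries, without overlap. The 6 vascular markers also separated these groups, at 155 to 194 CPM in the ICI group and 208 to 260.0 in the combined group, and the 9 meningeal markers summed to 62.6 to 248 and 146 to 451 CPM, with overlap. None of these markers was at 0 in every library, and their part in the differences of Chrna5 and Chrm1 was not tested. Over the alternatives tried, the adjusted p of this difference lay between 0.103 and 0.801 and its log2 fold change between -0.84 and -0.54. With the 4 tissue scores as covariates, the Chrna5 difference was -0.54 (SE 0.23) and that of Htr7 0.30 (SE 0.22).

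Chrm1 (ENSMUSG00000032773, chr19:8663789-8683587, plus strand) lay between 159 and 209.9 CPM in melanoma plus ICI and between 177 and 315 CPM in ICI, with overlap. With the 4 tissue scores as covariates, its difference was -0.16 (SE 0.13). Chrm1 correlated with the dentate gyrus score over the 20 libraries (r = 0.74, permutation p = 2e-04, adjusted p = 0.00556; rho = 0.75, permutation p = 2.8e-04, adjusted p = 0.00657; r = 0.72 without the 2 farthest libraries). The 5 dentate gyrus markers summed to 90.0 to 633 CPM in control libraries, 122 to 651 in the ICI group, 75.1 to 354 in the melanoma group and 40.7 to 181 in the combined group, and none was at 0 in every library. The vascular scores, with which Chrm1 correlated inversely, were 4.03 to 4.35 in the ICI group and 4.499 to 4.66 in the combined group, without overlap.

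**Figure D4:**
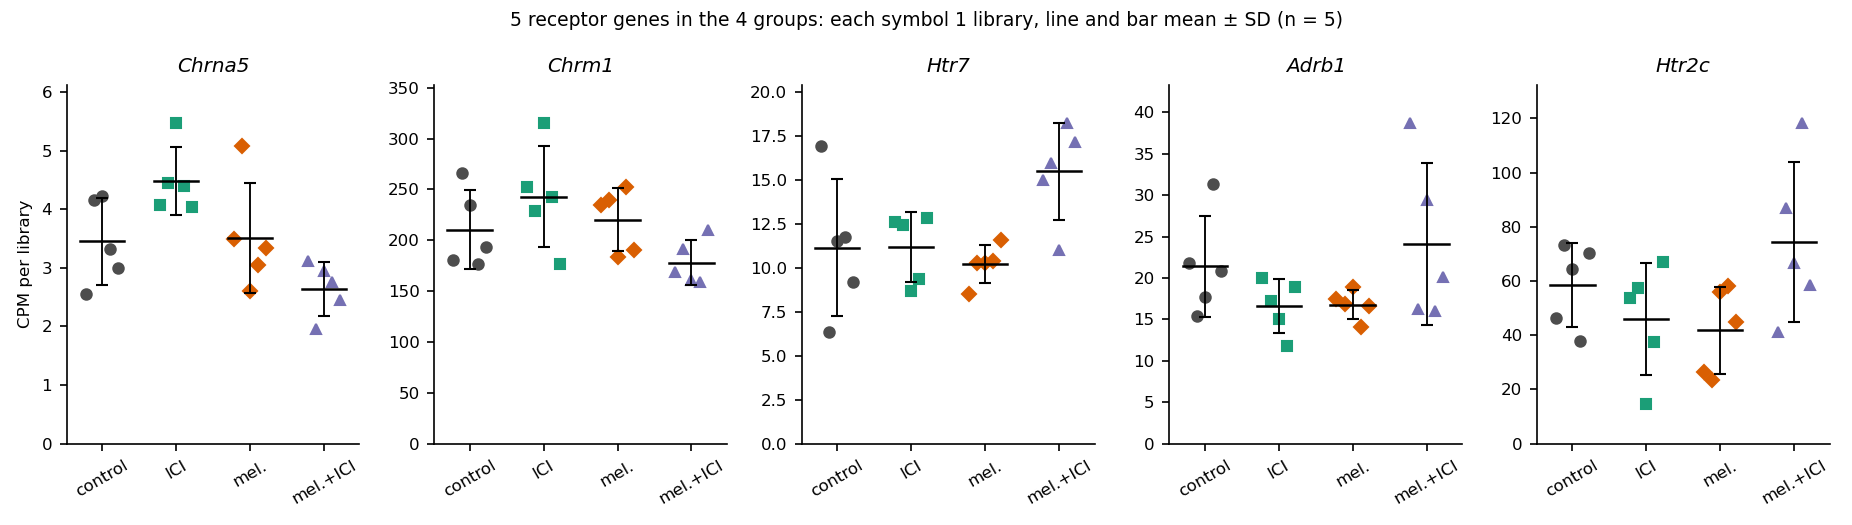
CPM of Chrna5, Chrm1, Htr7, Adrb1 and Htr2c per library on linear axes from 0, by group (mel. stands for melanoma), with the mean and SD of 5 libraries as line and bar. The melanoma plus ICI points of Chrna5, 1.95 to 3.12 CPM, lie below every ICI point, and the groups overlap for the other 4 genes.

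The interaction tests whether the ICI difference in tumour-bearing mice departs from that in tumour-free mice. Of the members, 13 had a log2 interaction above 0 and 23 below, with a median of -0.20, beside 0.02 over all genes. With an unadjusted p under 0.05, 3 were above and 3 below, beside 5.99% of all genes above and 4.28% below. Above 0 were Htr2c (1.18, SE 0.50), Adrb1 (0.89, SE 0.32) and Htr7 (0.60, SE 0.28), and below were Htr1b (-0.91, SE 0.25), Chrna5 (-0.79, SE 0.26) and Chrm1 (-0.52, SE 0.20). The adjusted p by edgeR was 0.365 for Htr1b and between 0.476 and 0.484 for the others, so no difference in response was called. Without the 4 libraries high in striatal markers, the interaction of Htr1b was -0.57 (SE 0.23). With the 4 tissue scores as covariates, it was 0.85 (SE 0.25) for Adrb1, 0.61 (SE 0.54) for Htr2c, 0.26 (SE 0.33) for Htr7, -0.63 (SE 0.19) for Htr1b, -0.70 (SE 0.33) for Chrna5 and -0.31 (SE 0.19) for Chrm1. By voom with quality weights the interaction of Adrb1 was 0.38.

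Summed over each family, receptor levels were compared without a test. All 41 genes together made 732 ± 64.7 CPM in control libraries, 802 ± 44.03 in the ICI group, 746 ± 53.3 in the melanoma group and 732 ± 47.1 in the combined group (SD, n = 5). The muscarinic sum, most of it from Chrm1, was 299 ± 43.5, 340.4 ± 56.4, 318 ± 38.5 and 270.3 ± 24.8 CPM in that order. The serotonin receptor sum was 167 ± 18.4, 171 ± 26.3, 157 ± 14.7 and 189 ± 37.3 CPM in the same order of groups. The adrenergic sum lay between 140.4 and 146 CPM in every group, and the nicotinic sum between 123 and 146.

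Receptor levels were also set beside markers of particular tissues and cell types. Log2 CPM of the 36 tested members was correlated with 17 marker scores, each the mean log2 CPM of a list, over the 20 libraries, which gave 612 pairs. Of these, 65 pairs in 26 genes had an adjusted p under 0.05 by a permutation test with 100000 resamples, whose smallest possible p is 1e-05. That count includes the striatum, oligodendrocyte and cholinergic neuron lists, whose scores form clusters. The share of other genes past the same threshold was not computed. A correlation of at least 0.6 in size with some list was found for 75% of the tested receptor genes, beside 61.5% of the 18295 other tested genes outside the lists. By pair of gene and list, the shares were 10.9% and 6.85%. Such relations were thus common among all genes, and the differences in share were not tested. The points share their libraries and the scores share tissue, so the pairs are not independent. For each list the member with the largest correlation is given.

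Chrnb4, the beta-4 subunit known from the habenula and autonomic ganglia, correlated with the choroid plexus score (r = 0.88, permutation p = 1e-05, adjusted p = 7.65e-04; rho = 0.85, permutation p = 2e-05, adjusted p = 0.00122; r = 0.84 without the 2 farthest libraries). Its highest libraries were control 2 at 2.00 CPM and melanoma plus ICI 4 at 2.01 CPM. With a mean of 0.56 CPM and 267 counts summed over all 20 libraries, Chrnb4 rests on few counts. Adra1b correlated with the neocortex score (r = 0.87, permutation p = 2e-05, adjusted p = 0.00111; rho = 0.89, permutation p = 1e-05, adjusted p = 0.00122; r = 0.85 without the 2 farthest) and with the interneuron score (r = 0.83, permutation p = 2e-05, adjusted p = 0.00111; rho = 0.82, permutation p = 3e-05, adjusted p = 0.00167; r = 0.76 without the 2 farthest). The 3 highest Adra1b libraries were melanoma plus ICI 3, control 4 and melanoma plus ICI 1, with neocortex scores of 5.10, 4.83 and 5.17 and interneuron scores of 6.21, 6.45 and 6.28.

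Within the hippocampal fields, Htr4, a Gs-coupled serotonin receptor, correlated with the dentate gyrus score (r = 0.79, permutation p = 1e-05, adjusted p = 7.65e-04; rho = 0.80, permutation p = 2e-05, adjusted p = 0.00122; r = 0.79 without the 2 farthest libraries). Adra1d correlated with the CA3 score (r = 0.87, permutation p = 1e-05, adjusted p = 7.65e-04; rho = 0.82, permutation p = 6e-05, adjusted p = 0.00262; r = 0.81 without the 2 farthest). It also correlated with the dentate gyrus score (r = 0.74, permutation p = 1.8e-04, adjusted p = 0.00551; rho = 0.75, permutation p = 3.1e-04, adjusted p = 0.00678; r = 0.67 without the 2 farthest). Htr5b correlated with the CA1 score (r = 0.84, permutation p = 2.1e-04, adjusted p = 0.00559; rho = 0.62, permutation p = 0.00445, adjusted p = 0.0432). That relation rests in part on melanoma plus ICI 1 and 3, without which r was 0.54. Adra1d correlated inversely with the thalamus score (r = -0.67, permutation p = 0.00122, adjusted p = 0.0178; rho = -0.74, permutation p = 2.8e-04, adjusted p = 0.00657; r = -0.69 without the 2 farthest).

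Among glial and vascular lists, Adra1a correlated with the astrocyte score (r = 0.84, permutation p = 1e-05, adjusted p = 7.65e-04; rho = 0.85, permutation p = 1e-05, adjusted p = 0.00122; r = 0.79 without the 2 farthest libraries). Chrm5 correlated inversely with the microglia score (r = -0.67, permutation p = 0.00353, adjusted p = 0.0372; rho = -0.67, permutation p = 0.00158, adjusted p = 0.0242; r = -0.60 without the 2 farthest). Chrm1 correlated inversely with the vascular score (r = -0.71, permutation p = 3.7e-04, adjusted p = 0.00809; rho = -0.59, permutation p = 0.0077, adjusted p = 0.0597; r = -0.64 without the 2 farthest). Chrna5 correlated inversely with the meninges score (r = -0.71, permutation p = 5e-04, adjusted p = 0.009; rho = -0.73, permutation p = 4.3e-04, adjusted p = 0.00822; r = -0.64 without the 2 farthest). Chrm2 correlated with the score of 2 tested noradrenergic markers (r = 0.61, permutation p = 0.0044, adjusted p = 0.0421; rho = 0.63, permutation p = 0.00383, adjusted p = 0.0404; r = 0.59 without the 2 farthest). The noradrenergic list summed to between 0.667 and 2.17 CPM, so its score rests on few counts. With group means removed, the adjusted p was 0.0528 for Adra1d with thalamus, 0.0562 for Chrm1 with vascular markers and 0.0939 for Chrna5 with meninges.

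**Figure D5:**
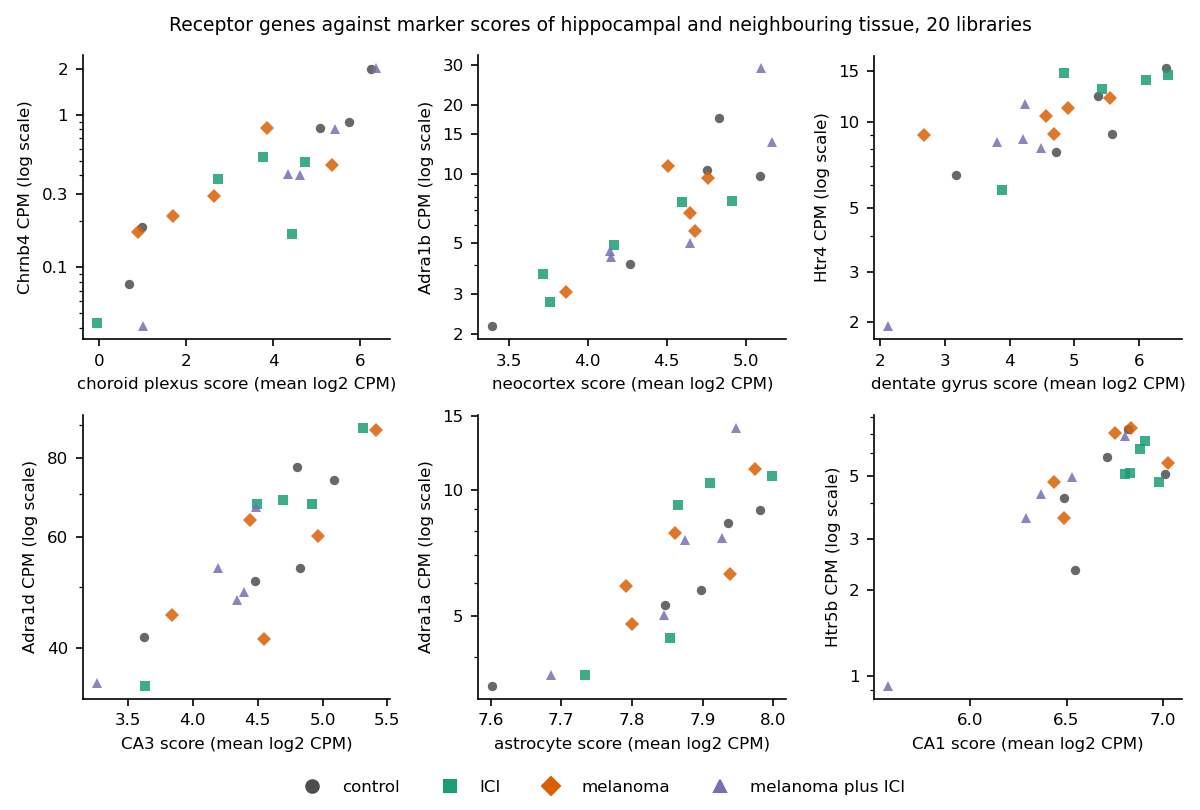
CPM per library of 6 receptor genes on a log axis against the score of a marker list (mean log2 CPM), with symbols by group. The pooled r over 20 libraries lies between 0.79 and 0.88, and trends were not compared between groups. In the CA1 panel the lowest point, melanoma plus ICI 3 at 0.928 CPM of Htr5b, lies apart.

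For the oligodendrocyte and cholinergic neuron lists the scores separate into clusters, so correlations are given within them, adjusted over these 3 relations. The cholinergic list summed to between 0.467 and 10.6 CPM, so its lower scores rest on few counts. In the 17 libraries with the higher oligodendrocyte scores, Htr3a had r = -0.60 (permutation p = 0.0108, adjusted p = 0.0323) and rho = -0.56 (permutation p = 0.0227, adjusted p = 0.0681), and r was -0.43 without the 2 farthest. Htr1d and the cholinergic score had r = 0.00 (permutation p = 0.997, adjusted p = 0.997) and rho = 0.05 (permutation p = 0.886, adjusted p = 0.886) in the 12 lower libraries, with r = 0.05 without the 2 farthest. In the 8 upper libraries r was 0.70 (permutation p = 0.0556, adjusted p = 0.0833) and rho 0.67 (permutation p = 0.0833, adjusted p = 0.125), with r = 0.84 without the 2 farthest. The habenula and serotonin neuron lists had no member with an adjusted p under 0.05.

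Of the 36 tested members, 7 had their highest value in melanoma plus ICI 3 and 6 their lowest, among them Adra1b, Adra1a and Htr2a at the high end and Htr1a, Htr4, Htr5b, Htr3a and Chrm5 at the low end. Another 7 were highest in melanoma plus ICI 4, among them Htr2c, Htr7, Chrnb4 and Adra2a. Both libraries belong to the combined group. Of the 18427 tested genes, 9.34% were highest and 10.4% lowest in melanoma plus ICI 3. In melanoma plus ICI 4, 7.14% were highest and 4.67% lowest. These shares were not computed for the other libraries.

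Genes that make, clear or relay these transmitters were taken from a list of 58, of which 53 were tested. None reached an adjusted p under 0.05 by edgeR in any comparison. In ICI against control, 3 of 53 had an unadjusted p under 0.05, all higher, beside 2.08% of all genes, and the smallest p was that of Plcb1, a phospholipase C beta (0.22, SE 0.09, adjusted p = 0.766). In melanoma against control, 4 were higher (2.7% of all genes) and 0 lower (2.41%), led by Gnal, the olfactory and striatal G protein subunit (0.55, SE 0.19, adjusted p = 0.813). The difference of Gnal was 0.12 (SE 0.21) without the 4 libraries high in striatal markers and 0.08 (SE 0.11) with the 4 tissue scores as covariates. For melanoma plus ICI against control, 1 was higher (1.1% of all genes) and 1 lower (1.28%), led by Dbh, which makes noradrenaline (-1.41, SE 0.62, adjusted p = 1.00). Dbh belongs to the noradrenergic list, which summed to at most 2.17 CPM, so its difference rests on few counts. Against melanoma alone, melanoma plus ICI had 1 higher (2.63% of all genes) and 3 lower (2.87%), led by Gna14, a Gq-class subunit (-0.80, SE 0.36, adjusted p = 0.825). Against ICI alone, it had 4 higher (4.12% of all genes) and 4 lower (4.51%), led by Rgs14, a regulator of G protein signalling (-0.78, SE 0.25, adjusted p = 0.563). In the interaction, 1 was above 0 (5.99% of all genes) and 3 below (4.28%), led by Gna14 (-1.50, SE 0.52, adjusted p = 0.476).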

How the data were processed

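Total RNA of single hippocampi was extracted by column (Qiagen RNeasy Plus Universal), per the labels' protocols. The deposited tables hold raw counts per gene in the featureCounts layout, per the file headers. The submitters' processing notes name STAR 2.5.2b and DESeq2 1.16.1 without roles. The genome build and strandedness are not given in the sources used here; of 49671 identifiers, 49412 occur in GENCODE M21 (GRCm38), which gave the symbols, and 45214 have the same start and end there.

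Groups came from the sample titles. Replicates are separate mice, per the labels; the chi-square per gene within groups was 10.5 to 120 over 40 pairs, more than counting noise gives. Counts were fitted with edgeR 4.0.16 in R 4.3.3: filterByExpr (minimum count 10, minimum total 15; 18427 genes kept), TMM factors (0.9555 to 1.0432), a robust quasi-likelihood model over all 20 libraries with 1 mean per group, and Benjamini-Hochberg adjustment over all tested genes. CPM means counts per 1000000 of TMM-scaled library size; log2 CPM used a prior count of 2. Scores are mean log2 CPM over a list's tested markers. Correlations used two-sided permutation tests (100000 resamples), adjusted over all pairs. The shares of correlations of at least 0.6 in size, over all genes, were added after seeing the data. Separate clusters were called where a gap between at least 3 libraries on each side exceeded 25% of the score range, a criterion chosen after the scores were seen. The fit was tested on simulated data.

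The named members are those with an unadjusted p under 0.05 in a comparison (none had an adjusted p under 0.05), the 2 highest per length in each family, members whose highest library was at least 3 times the median at a mean of at least 1 CPM, the top correlate of each marker list if past the threshold, and the pathway gene with the smallest p per comparison. The correlations of Adrb1 with neocortex, Htr2c with meninges and choroid plexus, and Chrm1 and Adra1d with dentate gyrus were added after their values were seen. 1 member is counted in the totals but not reported here by name. The members and lists were chosen with earlier results of these data known. Alternatives were size factors (RLE), DESeq2 1.42.0, limma 3.58.1 voom with quality weights, no filter, the groups compared alone, the replicate block, the 4 tissue scores, leaving out each library and, added after seeing the data, leaving out the 4 libraries high in striatal markers.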

Additional observations from a re-analysis of the deposited data

Results flagged for a closer look

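Among the 144 sets of 5 libraries (36 receptor genes in 4 groups), 6 held a library whose gap to its nearest neighbour exceeded 0.71 of the range of the set, and chance alone marks about 1 set in 20. Adra2b, an alpha-2 adrenergic receptor, was at 0.783 CPM in control 4, with the other controls at 0.205 to 0.313. The nicotinic subunit Chrna3 was at 1.53 CPM in melanoma 2 beside 1.218 to 1.301, and at 2.29 CPM in melanoma plus ICI 4 beside 1.11 to 1.34. Chrna5 was at 5.47 CPM in ICI 3 beside 4.04 to 4.45, and Chrnb1 at 3.14 CPM in melanoma 4 beside 2.27 to 2.52. Htr4 was lowest in ICI 5 at 5.77 CPM, with the other ICI libraries at 13.0 to 14.7.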

How the results depend on the processing

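The 24 receptor differences with an unadjusted p under 0.05, picked by that p in these same data, kept their direction under all alternatives run for them. None had an adjusted p under 0.05 in the main fit, so staying above it, as 483 of their values did, says little about stability. The 1 exception was Htr1b in melanoma against control by DESeq2, which made the receptor genes called there 1. Their sizes moved: over the alternatives, Htr1d in melanoma against control lay between 0.20 and 2.31. Adrb1 in melanoma plus ICI against melanoma lay between 0.19 and 0.65. Other members did change sign: of 216 log2 values (36 genes in 6 comparisons), 49 had the other sign with the 4 tissue scores as covariates and 28 without the 4 libraries high in striatal markers. Counts over all genes were 0 in the main edgeR fit and moved with the tool and with the libraries used. In ICI against control DESeq2 called 1 gene. In melanoma against control DESeq2 called 8, voom 1, the fit of the groups compared alone 3, and leaving out each library 0 to 1. In melanoma plus ICI against melanoma voom called 25, the fit without the 4 libraries high in striatal markers 1, and leaving out each library 0 to 12, with 12 without melanoma plus ICI 3. In melanoma plus ICI against ICI DESeq2 called 9. In the interaction DESeq2 called 47, voom 19, and leaving out each library 0 to 11, with 11 without melanoma plus ICI 3. The causes were not tested. With edgeR, 964, 941, 438, 1013, 1590 and 1892 genes had an unadjusted p under 0.05 in the 6 comparisons in the order of the report. With the replicate block the number of genes called was 0 in each comparison. Same-numbered libraries of different groups correlated at -0.35 to 0.53 (30 pairs), and different-numbered ones at -0.52 to 0.69 (120 pairs). Of the 20 libraries, 6 correlated best with their own number. No pairing by number was seen, but this comparison cannot exclude one. Of 42 correlation values under alternatives, 34 kept their side of the threshold and 8 lost it; the pairs past the threshold numbered 55 with group means removed, 64 with size factors and 51 without the 2 farthest libraries. Genes below about 1 CPM, such as Htr1d, Chrnb4 and Adra2b, rest on few counts a library.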
